A study of Homo sapiens with 12 samples.

Results

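The first 24 h of TGF-β treatment were examined in A549 cells, an established human lung adenocarcinoma line with epithelial morphology that undergoes epithelial-to-mesenchymal transition (EMT) when it is treated with this cytokine. The members are the 4 libraries of 0 h (2 libraries, no TGF-β yet) and 24 h (2 libraries), which came from 8 of the 12 sequencing runs of the series and 4 of its 6 libraries. The other 2 libraries, taken at 96 h, entered the model of the spread and the second time step. Per the study's methods, cells were kept in serum-free medium for 24 h before TGF-β1 was added, so all groups share this step. The methods do not say whether serum was returned with TGF-β1. The total time without serum may therefore differ between 0 h and 24 h. An untreated culture of 24 h was not analysed here, so the effect of TGF-β and that of time in culture cannot be told apart. The labels give replicate numbers but do not say that the libraries of a time point came from separate cultures, so the p-values measure the spread between these libraries, which may be technical.

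A microRNA (miRNA) is cut from a hairpin precursor, and either strand of the hairpin (5p or 3p) can be loaded into an Argonaute protein and repress mRNAs that pair with its seed, the bases near its 5′ end. Precursors that lie close together are often transcribed as one unit, and mature miRNAs with the same seed form a family with overlapping targets. In EMT, the miR-200 family is known to repress the transcription factors ZEB1 and ZEB2, and miR-21 is the miRNA best known to rise with TGF-β signaling. Mature miRNAs are in general long-lived, so that an early decrease can lag behind a change in transcription.

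The count of each mature miRNA was taken from its precursor entry with the highest total. The 0 h libraries held 2335185 and 2456447 counts and the 24 h libraries 2545769 and 3214230, and 1 read corresponded to between 0.298 and 0.372 CPM, the count scaled to library size, after TMM normalization in these libraries. Of 1417 mature miRNAs with at least 1 count, 491 passed the expression filter and were tested in edgeR (quasi-likelihood), with p-values adjusted over all 491 by the method of Benjamini and Hochberg. The call required both an adjusted p under 0.05 and a log2-fold change beyond 1 in either direction. Values written as a number ± another are log2-fold changes with their standard errors. With 2 libraries on each side, the smallest p that an exact permutation of the labels allows for one miRNA is 0.333 (two-sided). The libraries hold RNA of whole cultures, in which fewer cells that express a miRNA and less of it per cell cannot be told apart. Of the epithelial markers, the summed level was 126 CPM in both 0 h libraries and 164 and 191 CPM at 24 h, with miR-205-5p at no more than 3 counts in any of the 4 libraries. The sum hides mixed directions, as 3 of the 6 tested markers had log2-fold changes above 0 and 3 below. Their median was 0.14, and −0.15 when total counts replaced TMM. The label of 0 h replicate 1 gives its second run a date that no other 0 h or 24 h library has.

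The miRNAs that moved first were few. At 24 h into EMT, 17 of 491 tested miRNAs were called (3.46%), of which 6 were higher (1.22%) and 11 lower (2.24%). Their sequences are shown because their seeds decide whether the early miRNAs could share targets. They were read from RefSeq on GRCh38.p14, which held 15 of the 17, and capitals mark the seed, bases 2 to 8 from the 5′ end. The first 5 were higher at 24 h and the others lower, and miR-181a-5p, the other strand of miR-181a-2-3p, is added for comparison.
miR-143-3p: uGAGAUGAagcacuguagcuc
miR-129-5p: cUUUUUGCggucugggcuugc
miR-181a-2-3p: aCCACUGAccguugacuguacc
miR-136-3p: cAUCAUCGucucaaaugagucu
miR-493-5p: uUGUACAUgguaggcuuucauu
miR-7-5p: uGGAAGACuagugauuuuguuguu
miR-7974: aGGCUGUGaugcucuccugagccc
miR-33b-3p: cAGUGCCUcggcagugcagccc
miR-573: cUGAAGUGauguguaacugaucag
miR-1303: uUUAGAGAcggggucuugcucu
miR-584-5p: uUAUGGUUugccugggacugag
miR-671-5p: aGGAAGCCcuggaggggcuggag
miR-3912-3p: uAACGCAUaauauggacaugu
miR-1268a: cGGGCGUGgugguggggg
miR-1268b: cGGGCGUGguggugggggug
miR-181a-5p: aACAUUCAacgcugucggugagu
Apart from miR-1268a and miR-1268b, none of the 15 shared its seed with another of the 434 tested miRNAs that had a RefSeq sequence. The 15 were thus spread over different seeds rather than concentrated in one seed family.

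**Figure D1:**
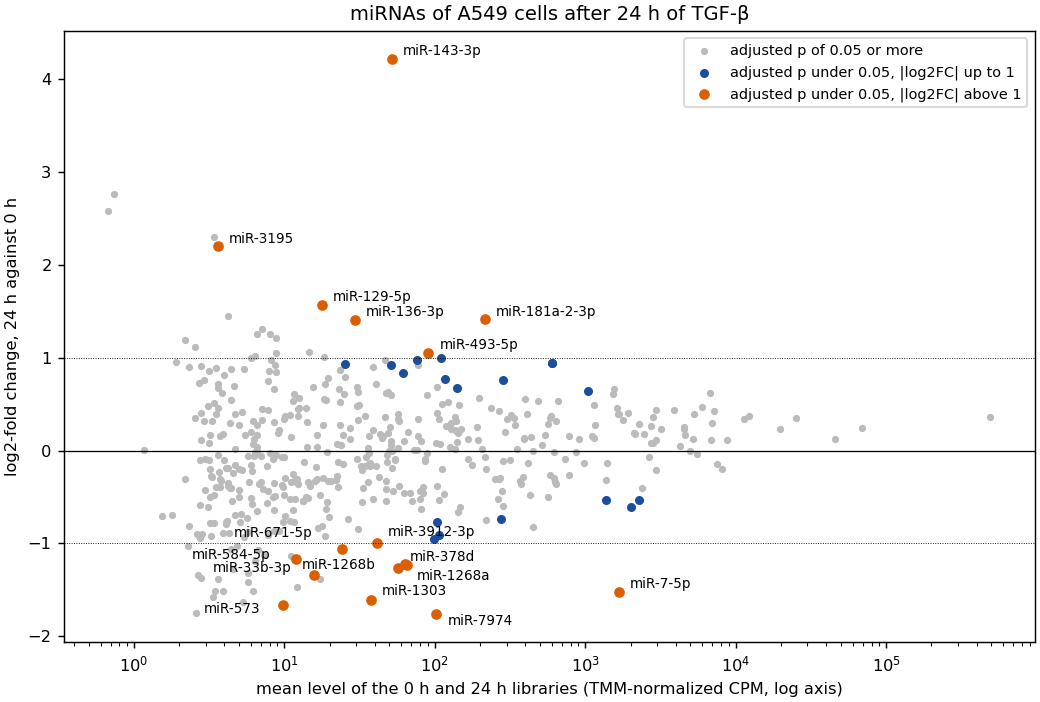
The log2-fold change of each of the 491 tested miRNAs at 24 h against 0 h (vertical axis) is plotted against its mean level in the 4 libraries (horizontal log axis, TMM-normalized CPM), with the 17 called miRNAs named. miR-143-3p stands alone at 4.22, and the called miRNAs that were lower reach down to −1.76.

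Among the miRNAs that rose, miR-143-3p had the largest log2-fold change. It is a miRNA known for its abundance in smooth muscle and fibroblasts. MIR143 occupies chr5:148808481-148808586 (GRCh37, plus strand) and overlaps an exon of CARMN, a long non-coding RNA. The level of miR-143-3p was 6.23 and 4.48 CPM at 0 h (17 and 15 counts) and 98.7 and 99.1 CPM at 24 h (265 and 324 counts). Both 24 h libraries were close to each other and far above both 0 h libraries. The rise was 18.6-fold, or 4.22 ± 0.22 on the log2 scale (edgeR adjusted p = 1.4e-06), and it went on by a further 2.11 between 24 and 96 h (edgeR adjusted p = 2.23e-05).

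The other detected strands of miR-143 and of miR-145, which is known to be processed from the same host transcript, were near the limit of detection at 24 h. The counts of miR-145-5p were 1 and 0 before treatment, then 3 and 4 at 24 h, and this strand passed the expression filter only through its 29 and 25 counts at 96 h. miR-143-5p had 0 counts in all 4 libraries of 0 and 24 h, which allows up to 1.12 CPM at 24 h. For miR-145-3p the counts were 0 and 1 before treatment, then 1 and 0 at 24 h. Thus, miR-143-3p was the only strand of the locus with more than 4 counts in any of these libraries.

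Fibroblast miRNAs were examined beside this rise, since miR-143-3p is abundant in that cell type. The summed level of the 7 fibroblast and mesenchymal markers was 4.40 and 2.09 CPM at 0 h and 1.86 and 9.18 CPM at 24 h, so the groups overlapped. This list counts the same reads under miR-199a-3p and miR-199b-3p and includes miR-145-5p of the miR-143 locus itself. Without miR-199b-3p and miR-145-5p, the other 5 summed to 2.20 and 1.19 CPM at 0 h and 0.372 and 4.28 CPM at 24 h. The highest single count of a marker in these libraries was 12. Both strands of miR-214 had 0 counts in all 4 libraries. The 4 muscle markers, miR-1-3p, miR-133a-3p, miR-133b, and miR-206, summed to at most 1.83 CPM in any of them. This list holds no marker chosen for smooth muscle. The 2 endothelial markers, miR-126-3p and miR-126-5p, were not near the floor. They summed to 461 and 404 CPM at 0 h and 516 and 457 CPM at 24 h, so the groups overlapped.

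The passenger strand of a miR-181 precursor rose next in strength of support. MIR181A2 is found at chr9:127454721-127454830 in an intron of MIR181A2HG and opposite to an intron of NR6A1, with MIR181B2 as its neighbour. The miR-181 family is known for its role in lymphocyte development. The level of miR-181a-2-3p was 117 CPM in both 0 h libraries and 306 and 318 CPM at 24 h. Replicates of each time point nearly coincided. This was 1.41 ± 0.14 on the log2 scale (edgeR adjusted p = 0.000227), and it rose by a further 0.91 to 96 h (edgeR adjusted p = 0.00354).

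The list of miR-181 strands held 7 tested members, all with log2-fold changes above 0 and with a median of 0.53 (0.24 on total counts), against −0.0041 over all tested miRNAs, of which 49.7% were above 0 and 50.3% below. Only miR-181a-2-3p was called, and miR-181a-3p, the passenger strand of MIR181A1 on chromosome 1, also passed the adjusted p without reaching the fold threshold. miR-181a-3p was at 105 and 110 CPM at 0 h and at 165 and 179 CPM at 24 h, or 0.67 ± 0.15 on the log2 scale (edgeR adjusted p = 0.0301). The guide strand miR-181a-5p, which the loci on chromosomes 1 and 9 both encode and whose seed ACAUUCA differs from that of the passenger, was at 2014 and 2889 CPM at 0 h and 3531 and 2788 CPM at 24 h. These groups overlapped, and its log2-fold change of 0.37 did not pass the test (edgeR adjusted p = 0.264). miR-181b-5p was just outside, with 0.66 (edgeR adjusted p = 0.0538), and its 24 h libraries lay above both 0 h libraries. Without 0 h replicate 1, 6 of the 7 listed members were above 0. miR-181b-3p, which was tested but is not in the list, had 16 and 7 counts at 0 h and 26 and 29 at 24 h. It had the second highest value of the miR-181 strands, 1.26 ± 0.48, and did not pass the test (edgeR adjusted p = 0.126).

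A pair of called miRNAs, miR-136-3p and miR-493-5p, came from one block on chromosome 14. The block runs from MIR493 at 101335397 to MIR136 at 101351125 within MIR493HG, and MIR136, MIR127, MIR431, MIR432, and MIR433 lie opposite to the coding exon of RTL1. It belongs to the imprinted DLK1-DIO3 domain, whose miRNAs are transcribed from the maternal allele and are known for their expression in embryo and brain. miR-136-3p was at 16.5 and 15.8 CPM at 0 h and at 42.8 CPM in both 24 h libraries, or 1.41 ± 0.21 on the log2 scale (edgeR adjusted p = 0.00349). miR-493-5p was at 71.1 and 47.2 CPM at 0 h and at 125.1 and 119.7 CPM at 24 h, or 1.05 ± 0.21 on the log2 scale (edgeR adjusted p = 0.0158). In both, every 24 h library lay above every 0 h library, but the 0 h libraries of miR-493-5p were wide apart, and omitting 0 h replicate 2 gave a log2-fold change of 0.79 while omitting 0 h replicate 1 gave 1.41. miR-493-5p was also not called on total counts (0.78), on total counts without miR-21-5p, with limma-trend, with a filter of 10 CPM, or without either 24 h library.

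The strands opposite to these called miRNAs had smaller values. miR-136-5p had a log2-fold change of 0.78 (edgeR adjusted p = 0.0973), with 24 h libraries above the 0 h ones. miR-493-3p had 0.36 (edgeR adjusted p = 0.417), and its groups overlapped. The most abundant miRNA of the block, miR-127-3p, was at 1014 and 1064 CPM at 0 h and at 1142 and 1183 CPM at 24 h, or 0.16 on the log2 scale (edgeR adjusted p = 0.451) that was −0.13 with total counts in place of TMM. Of the 12 tested miRNAs of the block, 11 had values above 0, 8 had groups that did not overlap with 24 h higher, against 29.3% of all tested miRNAs, and the median was 0.66 (0.37 on total counts, where 10 of 12 were above 0). Of the 15 listed for the block, all had counts.

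The larger block downstream, from MIR379 at 101488366 to MIR656 at 101533138, showed a comparable median without any called miRNA. It was taken by region on either strand, since the annotation places MIR380 and MIR382 on the minus strand, and without these 36 of 37 tested miRNAs were above 0. Of its 69 mature miRNAs, 65 had counts and 39 were tested. Among these 39, the log2-fold change was above 0 in 38, and the 24 h libraries lay above both 0 h libraries in 30 (29.3% of all tested miRNAs) and below them in 1 (28.5% of all tested), miR-154-5p, which had at most 11 counts in these libraries. The median was 0.66, and it was 0.36 on total counts, where 33 of 39 were above 0. Only miR-889-3p and miR-382-3p passed the adjusted p, with log2-fold changes of 0.97 and 0.93 (adjusted p = 0.0164 and 0.0437, edgeR). miR-485-3p and miR-485-5p had log2-fold changes of 1.21 and 1.30 and adjusted p-values of 0.0541 and 0.0595 (edgeR), on at most 16 counts in each 0 h library. The highest value of the block was that of miR-154-3p, with 1 and 6 counts at 0 h and 17 in both 24 h libraries, 2.29 ± 0.68 (edgeR adjusted p = 0.0677). The filter used all 6 libraries, so a miRNA of either block could be tested through its level at 24 or 96 h while low at 0 h. The medians and counts of members above 0 in both blocks describe the tested ones only and may lean upward for this reason. How far they do was not tested.

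Between both blocks lies MIR370, at chr14:101377476-101377550 in introns of MEG8 and MIR493HG. miR-370-3p was at 83.9 and 87.8 CPM at 0 h and at 132 and 160 CPM at 24 h, or 0.77 ± 0.17 on the log2 scale (edgeR adjusted p = 0.0301). Both 24 h libraries lay above both 0 h libraries. From 24 to 96 h, the median log2-fold change was a further 0.63 in the upstream block and 0.75 in the downstream one.

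**Figure D2:**
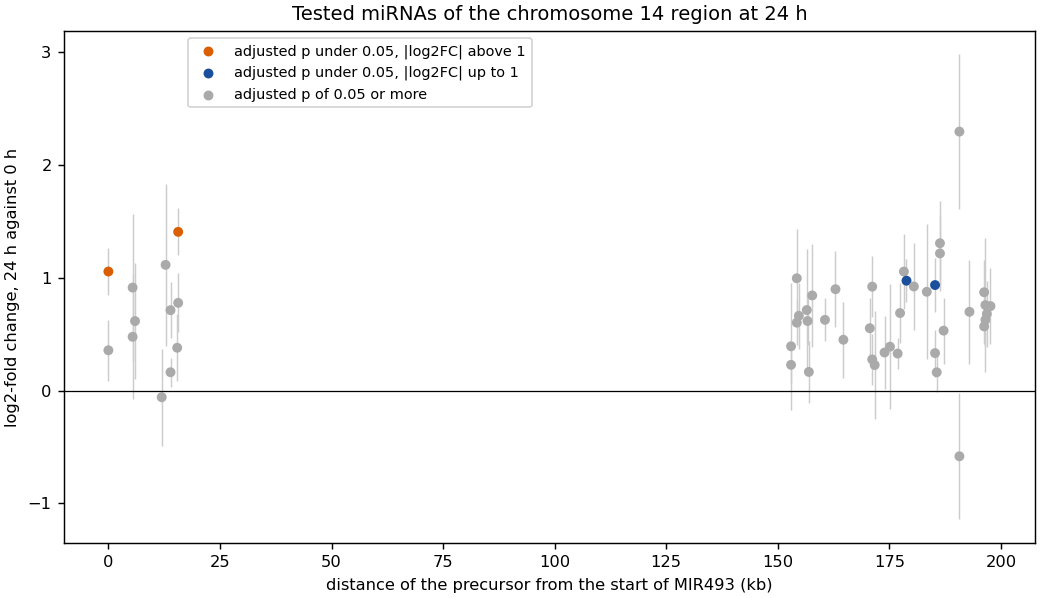
The log2-fold change at 24 h against 0 h (vertical axis, with its standard error) of the 51 tested miRNAs of both chromosome 14 blocks is plotted by the distance of the precursor from the start of MIR493 in kb. Of these 51, 49 lie above 0, and the called miRNAs sit at the ends of the upstream block, at 0 and 15.6 kb.

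The remaining called miRNAs that rose were miR-129-5p and miR-3195. miR-129-5p, a miRNA abundant in the brain, is encoded by MIR129-1 on chromosome 7 and MIR129-2 on chromosome 11, neither with a host gene in the annotation. It was at 8.80 and 9.25 CPM at 0 h and at 24.2 and 29.4 CPM at 24 h, or 1.57 ± 0.25 on the log2 scale (edgeR adjusted p = 0.00602). From 24 to 96 h no further step passed the test, with a log2-fold change of −0.06 (edgeR adjusted p = 0.893). The strands that would tell the loci apart were sparse, with 0 and 2 counts at 0 h and 7 and 3 at 24 h for miR-129-1-3p, and 0 and 2 against 0 and 0 for miR-129-2-3p.

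miR-3195, for which the RefSeq table held no sequence and the annotation no position, had 2 and 6 counts at 0 h and 11 and 26 at 24 h. Its log2-fold change of 2.20 (standard error 0.52, edgeR adjusted p = 0.0329) rested on these low counts. Omitting 1 library gave values from 1.57 (without 24 h replicate 2) to 3.02 (without 0 h replicate 2), and the call was lost without either 24 h or either 96 h library, with the 0 h and 24 h libraries alone, and with limma-trend. Most of its increase came later, with a log2-fold change of 3.26 from 24 to 96 h (edgeR adjusted p = 0.000128).

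Of the 11 called miRNAs that fell, miR-7-5p was by far the most abundant. miR-7-5p is known as a repressor of EGFR signaling and is abundant in neuronal and endocrine cells. Its level was 2542 and 2401 CPM at 0 h and 864 and 861 CPM at 24 h. Both pairs of libraries agreed closely, and the level at 0 h was 2.87-fold that at 24 h. This was −1.52 ± 0.14 on the log2 scale (edgeR adjusted p = 0.000184). It was the only called miRNA that turned back with an adjusted p under 0.05, by 0.52 from 24 to 96 h (edgeR adjusted p = 0.0361), when its level was 1330 and 1134 CPM.

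The 3 genes that encode miR-7-5p are MIR7-1 at chr9:86584663-86584772 within HNRNPK, MIR7-2 at chr15:89155056-89155165, and MIR7-3 at chr19:4770682-4770791 in an intron of MIR7-3HG. The other strand of MIR7-1, miR-7-1-3p, had 24 and 22 counts at 0 h and 18 and 39 at 24 h. These groups overlapped, and its log2-fold change was 0.31 (standard error 0.40, edgeR adjusted p = 0.629). miR-7-2-3p had 0 counts in all 6 libraries.

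miR-7974 had the largest decrease. It was at 164 and 153 CPM at 0 h and at 45.1 and 48.4 CPM at 24 h, or −1.76 ± 0.17 on the log2 scale (edgeR adjusted p = 0.00019). The libraries of each time point lay close together and far from those of the other. Its position on GRCh37 was not matched. The values of miR-143-3p, miR-181a-2-3p, miR-7-5p, and miR-7974 are the 4 that were called under every setting tried, including the omission of any library.

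miR-33b-3p lies with its other strand miR-33b-5p in an intron of SREBF1, at chr17:17717150-17717245. SREBF1 encodes a transcription factor of lipid synthesis, and miR-33 is known to repress the cholesterol transporter ABCA1. miR-33b-3p had 64 and 73 counts at 0 h and 32 and 20 at 24 h, or −1.34 ± 0.34 on the log2 scale (edgeR adjusted p = 0.0437). miR-33b-5p had 27 and 64 counts against 24 and 27, a log2-fold change of −0.77 that did not pass the test (edgeR adjusted p = 0.332). The call of miR-33b-3p was lost under 8 of 19 settings, among them DESeq2, limma-trend, and the 0 h and 24 h libraries alone, and omitting 24 h replicate 2 gave −0.97 while omitting 24 h replicate 1 gave −1.84. In both strands the CPM of the 24 h libraries lay below those of the 0 h libraries.

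The miR-378 sequences had values in the same direction. miR-378a lies in an intron of PPARGC1B, a coactivator of mitochondrial metabolism, at chr5:149112388-149112453. miR-378a-3p was at 1482 and 1766 CPM at 0 h and at 1086 and 1160 CPM at 24 h, or −0.53 ± 0.14 on the log2 scale (edgeR adjusted p = 0.0496), below the fold threshold. miR-378d, of which the matched precursor MIR378D1 lies in an intron of C4orf50 on chromosome 4, was called with −1.27 (standard error 0.30, edgeR adjusted p = 0.0323). Its 0 h libraries had 147 and 362 counts and its 24 h libraries 92 and 109, and without 0 h replicate 2 its log2-fold change was −0.66 and no longer called. No mature sequence was read for miR-378d and miR-378e, so they could not be counted by seed. The 5 tested miRNAs with the miR-378a-3p seed CUGGACU all had values below 0, with a median of −0.52 (−0.82 on total counts). These sequences are nearly identical, so reads can be shared among them and they are not independent.

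miR-1268a and miR-1268b, of which the shorter is the start of the longer, had nearly the same counts, 283 and 252 against 287 and 259 at 0 h and 101 and 127 against 102 and 129 at 24 h. They are best read as one signal, with log2-fold changes of −1.22 and −1.23 (adjusted p = 0.00788 and 0.00732, edgeR). Both were no longer called without 0 h replicate 1, with −0.94 and −0.96, or without either 24 h library. MIR1268A lies at chr15:22513229-22513280, with no host gene in the annotation.

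The other called miRNAs that fell were encoded by single precursors, mostly in introns. miR-573 (intron of DHX15, a splicing helicase) had 40 and 51 counts at 0 h and 11 and 17 at 24 h, and its log2-fold change was −1.67. miR-1303 (intron of LARP1, an mRNA-binding protein) had 190 and 146 counts against 45 and 65, and its log2-fold change was −1.61. For miR-584-5p (intron of SH3TC2) the counts were 47 and 54 against 19 and 25, and the log2-fold change was −1.17. In these 3 the CPM at 24 h were all below those at 0 h, with adjusted p-values of 0.0323, 0.0226, and 0.0475 (edgeR). miR-584-5p was the least stable of the 17, with its call lost under 11 of 19 settings, among them DESeq2 and the omission of any 1 library. The call of miR-573 was lost under 4 of 18 settings. These were libraries thinned to the smallest total and the omission of 0 h replicate 2 or of either 24 h library. miR-671-5p, whose precursor lies in a coding exon of CHPF2, an enzyme of chondroitin synthesis, had 75 and 127 counts against 45 and 48, or −1.06 on the log2 scale (edgeR adjusted p = 0.0329). Its other strand, miR-671-3p, had −0.18 (edgeR adjusted p = 0.558), and the groups overlapped. miR-671-5p was at −0.80 and not called without 0 h replicate 2. It is the 1 of the 17 that was not called at 96 h against 0 h. That comparison shares the 0 h libraries, and 127 of all 491 tested miRNAs (25.9%) were called in it.

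miR-3912-3p stood at the fold threshold. Its level was 63.4 and 46.6 CPM at 0 h and 27.6 and 27.2 CPM at 24 h, or −1.0004 on the log2 scale (edgeR adjusted p = 0.0411), and it fell by a further 1.07 to 96 h (edgeR adjusted p = 0.0288). Its call at 24 h was lost under 8 of 19 settings, among them DESeq2 and its size factors and the replicate block, and its value was −0.73 without 0 h replicate 1. Just outside the threshold was miR-365a-5p, with a log2-fold change of 0.9987. Among the called, the highest adjusted p was that of miR-584-5p. Of the miRNAs beyond the fold threshold, those with the lowest adjusted p of 0.05 or more were miR-485-3p at 0.0541, miR-378e and miR-485-5p at 0.0595 each, miR-7977 at 0.0648, and miR-154-3p and miR-4483 at 0.0677 each.

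**Figure D3:**
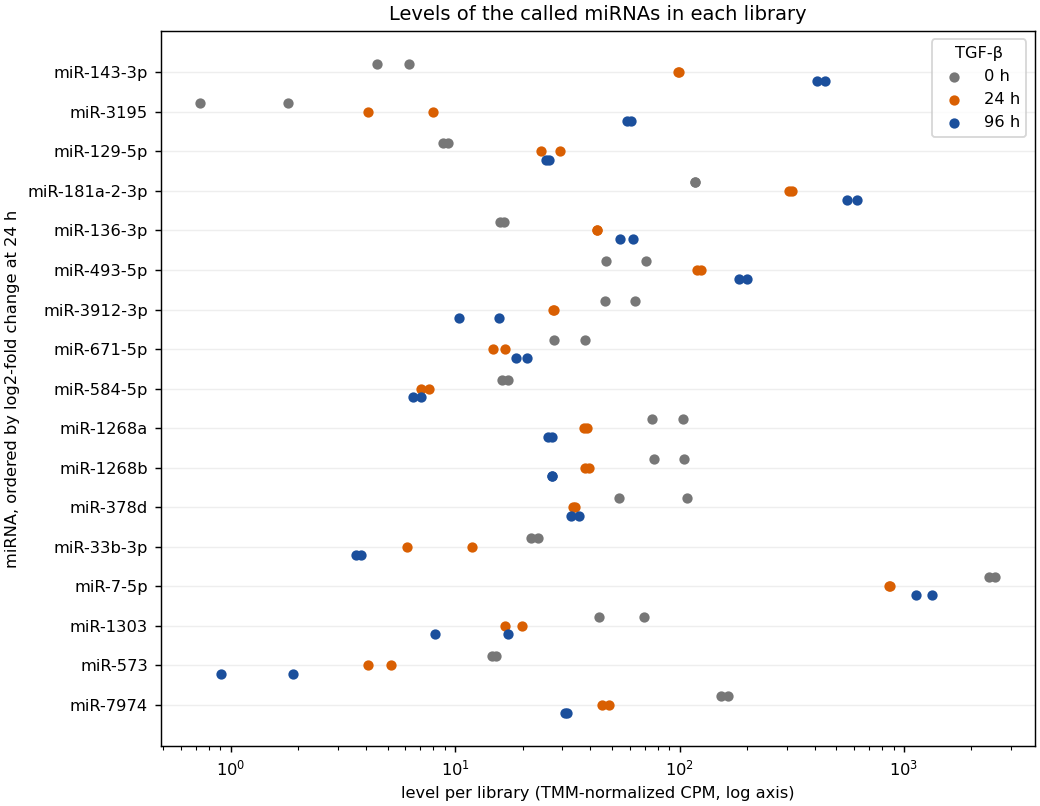
The level of each of the 17 called miRNAs in each library (horizontal log axis, TMM-normalized CPM) is shown for 0, 24, and 96 h, with 2 points at each time point. In all 17 the 0 h and 24 h points do not overlap, which was also the case for 57.8% of all tested miRNAs.

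A further 18 miRNAs passed the adjusted p below the fold threshold, 11 of them higher and 7 lower, so that 35 of 491 (7.13%) passed it in all, 17 higher (3.46%) and 18 lower (3.67%). On total counts, 4 of the 11 higher ones, miR-365a-3p, miR-365b-3p, miR-365a-5p, and miR-889-3p, still passed the adjusted p, the other 7 had adjusted p-values from 0.0694 to 0.199 (edgeR), and all 7 lower ones passed. The locus of MIR193B and MIR365A stood out among those that were higher by its median of 0.83 over 4 tested strands. All 4 were above 0, also on total counts, where the median was 0.54. The locus lies at chr16:14397824-14403228 within MIR193BHG, and its miRNAs are known from brown fat differentiation. miR-365a-3p was at 394 and 423 CPM at 0 h and at 820 and 754 CPM at 24 h, or 0.95 ± 0.14 on the log2 scale (edgeR adjusted p = 0.00349). miR-365b-3p, from MIR365B on chromosome 17, has almost the same counts and cannot be told from it. miR-365a-5p was at 74.4 and 71.3 CPM at 0 h and at 140 and 151 CPM at 24 h (edgeR adjusted p = 0.0139). The strands of miR-193b had lower values, 0.72 for miR-193b-5p (edgeR adjusted p = 0.0568) and 0.37 for miR-193b-3p (edgeR adjusted p = 0.246).

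Others in this range that were higher were miR-31-3p, miR-455-3p, and miR-374b-5p. miR-31-3p, from MIR31HG on chromosome 9, was at 189 and 236 CPM at 0 h and at 374 and 345 CPM at 24 h, or 0.76 on the log2 scale (edgeR adjusted p = 0.0226). miR-455-3p, from an intron of the collagen gene COL27A1, had 0.92 (edgeR adjusted p = 0.0346). miR-374b-5p, from an exon of the non-coding RNA FTX, had 0.64 (edgeR adjusted p = 0.0396). In each of the 3, both 24 h libraries were above both 0 h libraries.

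Among the 7 that were lower, miR-221-3p and miR-222-3p come from one locus, at chrX:45605585-45606530 within MIR222HG. They share a seed and are known to repress the cell cycle inhibitor CDKN1B. miR-221-3p was at 2598 and 2754 CPM at 0 h and at 1998 and 1708 CPM at 24 h, or −0.53 ± 0.14 on the log2 scale (edgeR adjusted p = 0.0475). miR-222-3p was at 2558 and 2312 CPM at 0 h and at 1559 and 1637 CPM at 24 h, or −0.61 ± 0.13 on the log2 scale (edgeR adjusted p = 0.0256). Both 24 h libraries lay below both 0 h libraries in each of them. The third tested strand, miR-221-5p, was at 0.02 with overlapping groups, and without 0 h replicate 1 the median of the locus was −0.14, with 2 of 4 tested strands above 0.

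The other lower ones, beside miR-378a-3p, were miR-345-5p, miR-589-5p, miR-486-5p, and miR-1180-3p, with log2-fold changes of −0.95, −0.91, −0.77, and −0.74 and adjusted p-values from 0.0139 to 0.0323 (edgeR). miR-486-5p is an erythroid miRNA from the ANK1 locus, at 129 and 133 CPM at 0 h and at 82.3 and 71.3 CPM at 24 h. The summed level of the 7 blood markers, none of which was tested, was 5.50 and 4.78 CPM at 0 h and 2.61 and 2.45 CPM at 24 h. miR-142-3p had 12 and 7 counts before treatment and 4 and 2 at 24 h, and miR-223-3p and miR-150-5p had 0 counts in all 4 libraries. Their part in the value of miR-486-5p was not tested.

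Families known from EMT and TGF-β signaling showed small or mixed values at 24 h. Of the 6 tested members of the miR-200 family, 3 had values above 0 and 3 below, and the single one that passed the adjusted p, miR-200b-3p, was higher. It was at 45.1 and 43.0 CPM at 0 h and at 67.8 and 88.4 CPM at 24 h, or 0.83 ± 0.20 on the log2 scale (edgeR adjusted p = 0.0375), and 0.54 with an adjusted p of 0.104 on total counts. miR-200a-3p, its neighbour at the locus chr1:1102484-1104467, had 0.60 (edgeR adjusted p = 0.0967). miR-429, at the same locus, had −0.34 (edgeR adjusted p = 0.508), with both 24 h libraries below both 0 h libraries. miR-200c-3p, from the other locus of the family on chromosome 12, had 61 and 46 counts at 0 h and 35 and 50 at 24 h, or −0.33 on the log2 scale (edgeR adjusted p = 0.506) with overlapping groups. Without 0 h replicate 1 this value was 0.088. The value of miR-141-3p, at most 13 counts in a library, was −0.94 (standard error 0.61, edgeR adjusted p = 0.346).

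miR-21-5p, the most abundant miRNA in all 4 libraries, held 56.1% and 52.4% of the counts at 0 h and 56.8% and 58.1% at 24 h. Its log2-fold change was 0.36 (standard error 0.18, edgeR adjusted p = 0.215) and 0.08 on total counts. miR-21-3p, the other strand, was at 1440 and 1849 CPM at 0 h and at 2086 and 2274 CPM at 24 h, or 0.41 ± 0.15 on the log2 scale (edgeR adjusted p = 0.126). Neither strand thus passed the test at 24 h, although the CPM did not overlap. Of the next most abundant, miR-100-5p had a log2-fold change of 0.35, let-7i-5p and miR-30a-5p 0.24 each, and miR-27b-3p 0.12, and none passed the test. On total counts miR-100-5p was at 0.06, and let-7i-5p, miR-30a-5p, and miR-27b-3p changed sign, to −0.0384, −0.0484, and −0.16.

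The 9 let-7 and miR-98 guide strands, known as brakes on proliferation that repress RAS and HMGA2, all had values above 0 and 24 h libraries above both 0 h libraries, as had 29.3% of all tested miRNAs. None passed the adjusted p, and their median was 0.29, with let-7g-5p highest at 0.43 (standard error 0.14, edgeR adjusted p = 0.092). On total counts the median was 0.0045 with 5 of 9 above 0, so their direction depended on the scaling. The miR-17-92 cluster and its paralogues, which are known to promote proliferation, had 17 of 19 tested members below 0 with a median of −0.36 (−0.66 on total counts), and none passed the adjusted p. Among its lower values were those of passenger strands of the MIR25 to MIR106B locus in MCM7, miR-25-5p at −0.84 (standard error 0.23, edgeR adjusted p = 0.0538) and miR-93-3p at −0.92 (standard error 0.32, edgeR adjusted p = 0.109).

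The miR-29 family, known to repress collagen genes, had a median of 0.01 over 7 tested members. The 0 h libraries of miR-29b-3p had 11595 and 27434 counts, farther apart than those at 24 h, with 26171 and 18089. The miR-30 family had a median of 0.11 over 11 members. Both medians were below 0 on total counts, at −0.31 and −0.17, so no direction can be given for these families. In the list of 20 miRNAs known as raised by TGF-β in other systems, 15 were tested, 14 had values above 0, and miR-143-3p alone was called, with a median of 0.37 (0.08 on total counts, where 9 of 15 were above 0). In the list of 17 known as lowered, 16 were tested, 10 had values above 0, and only miR-200b-3p passed the adjusted p, in the higher direction. The median of this list was 0.11, but −0.18 on total counts, where 3 of 16 were above 0.

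**Figure D4:**
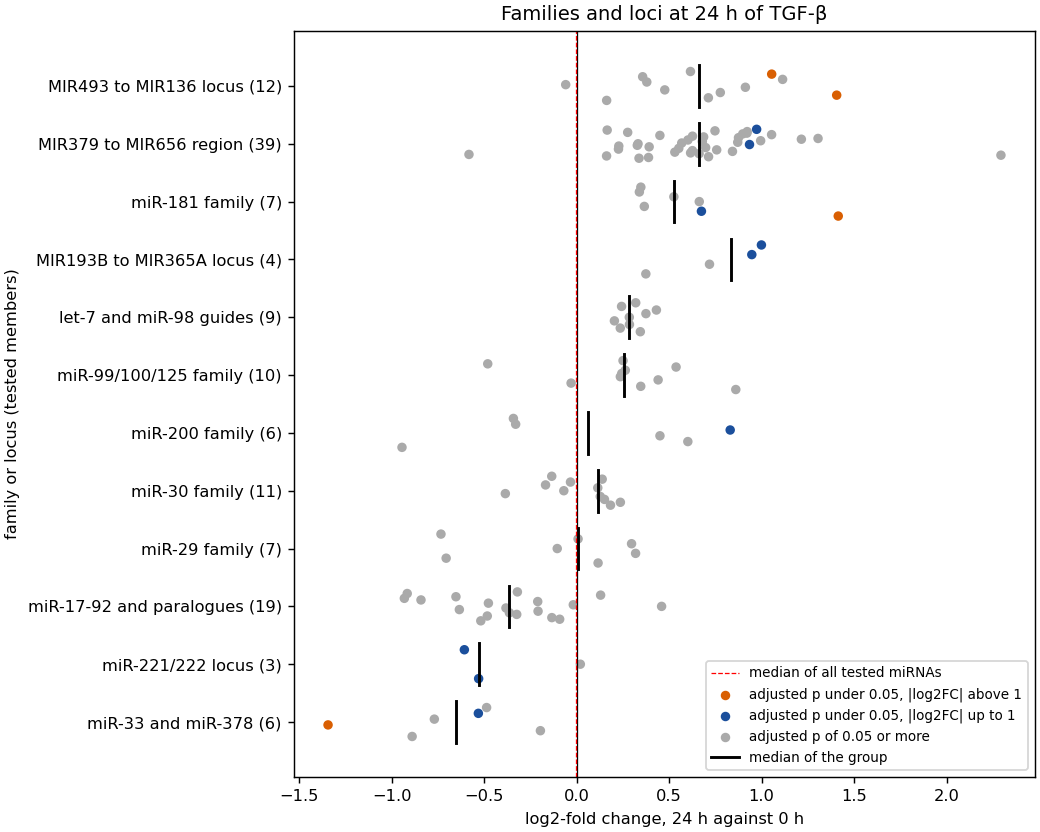
Each point is the log2-fold change at 24 h against 0 h of a tested miRNA of a family, locus, or list. The number of tested members is in brackets, a black bar marks the group's median, and a dashed line the median of all tested miRNAs. The medians run from 0.83 at the MIR193B to MIR365A locus to −0.65 for miR-33 and miR-378. The latter is a list that pools miRNAs of chromosomes 5, 17, and 22. In the MIR493 to MIR136 block lie 2 called miRNAs.

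What followed in the next step was examined in a direct comparison of 96 h with 24 h, which shares the 24 h libraries and is not independent of the first step. In that comparison 29 of 491 miRNAs (5.91%) were called, 18 higher (3.67%) and 11 lower (2.24%). Of the 17 miRNAs called at 24 h, 3 were called again, miR-143-3p and miR-3195 further up and miR-3912-3p further down. At an adjusted p under 0.05, the further rise of miR-181a-2-3p and the return of miR-7-5p were added, which makes 5 of 17, against 12.6% of all tested miRNAs. For the other 12, including miR-129-5p and miR-7974, the second step did not pass the adjusted p. Point estimates went further in the same direction in 13 of the 17.

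**Figure D5:**
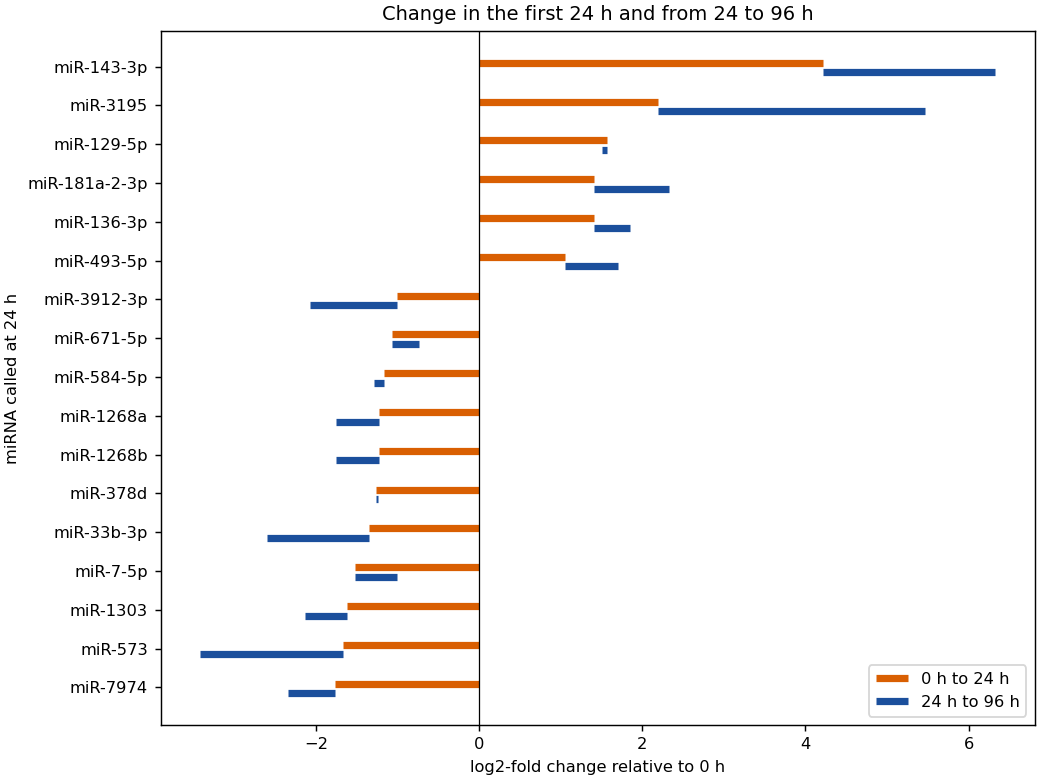
For each of the 17 called miRNAs, the upper bar gives the log2-fold change from 0 to 24 h and the lower bar that from 24 to 96 h, both on one axis relative to 0 h. miR-143-3p and miR-3195 extend furthest to the right, with later steps of 2.11 and 3.26, while the lower bars of miR-7-5p and miR-671-5p run back toward 0.

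The number of calls rested on both 24 h libraries. Without 24 h replicate 1, 5 miRNAs were called, namely miR-143-3p, miR-181a-2-3p, miR-7-5p, miR-7974, and miR-129-5p, and the first 4 of these remained when 24 h replicate 2 was omitted. Without 0 h replicate 1, whose second run date no other 0 h or 24 h library has but both 96 h libraries share, 36 were called, 24 of them higher, and 13 of the 17 were among them. TMM kept the median of all tested miRNAs at −0.0041, while total counts moved it to −0.30 and gave 33 calls, 5 higher and 28 lower, which included all of the 17 but miR-493-5p.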

How the data were processed

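Small RNA of A549 cells was sequenced on an Illumina HiSeq 2000, with 2 libraries per time point and 2 runs per library. The authors assigned reads to mature miRNAs with miRDeep2 2.0.0.7 and deposited unnormalized read counts per mature miRNA and precursor, with both runs summed; the submitters' processing notes name hg19. The authors also deposited normalized values, a signal that adds the depth-scaled values of both runs, used here in 1 alternative. There, 2 columns for 96 h carry the same name and were not used. Of 2588 names, the precursor entry with the highest total was kept.

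The fit used edgeR 4.0.16 under R 4.3.3, with TMM, filterByExpr with a minimum count of 10, time as the only term, all 6 libraries, a quasi-likelihood test, and Benjamini-Hochberg adjusted p-values over 491 miRNAs, which held 99.96% of the counts. Standard errors are the absolute log2-fold change over the square root of F. On simulated data of this comparison with a log2-fold change of 2 in 200 miRNAs, 95.2% were recovered and 1.01% of calls were false. In the data 17 miRNAs were called, of which only miR-143-3p and miR-3195 changed by more than 2 in size. The simulated shares therefore do not carry over to the smaller and fewer changes called here. The limit of 3 counts for an undetected miRNA reflects counting error alone, as PCR copies cannot be recognised without molecular identifiers. Families are lists by name that may hold both strands and more than one seed, seed groups share bases 2 to 8, and loci hold precursors on one strand within 10 kb of each other in GENCODE annotation lifted to GRCh37 (the MIR379 to MIR656 block was taken by region on either strand), where 419 tested names found a precursor. Sequences are from RefSeq on GRCh38.p14.

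Named miRNAs are those called, those with an adjusted p under 0.05, the next 5 above the fold threshold, the 5 most abundant, miR-21 and miR-143/145 strands, strands and neighbours of called miRNAs, and up to 4 of each family or locus. The members and lists were chosen with earlier results of these data known. Alternatives were DESeq2 1.42.0 and its size factors, total counts, limma-trend (limma 3.58.1), other filters, no fold threshold, 4 libraries, summed precursors, a replicate block, and omission of each library; thinned libraries and a crossed block were chosen after seeing the data.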

Additional observations from a re-analysis of the deposited data

Results flagged for a closer look

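The step from 24 to 96 h differed from 0 for 5 of the 17 miRNAs called at 24 h, by a direct test of the 96 h against the 24 h libraries in the same edgeR fit. It was 2.11 on the log2 scale for miR-143-3p (higher in 2 of 2 libraries, adjusted p = 2.23e-05), 3.26 for miR-3195 (2 of 2 higher, adjusted p = 0.000128), and 0.91 for miR-181a-2-3p (2 of 2 higher, adjusted p = 0.00354). It was −1.07 for miR-3912-3p (lower in 2 of 2 libraries, adjusted p = 0.0288). For miR-7-5p the step was 0.52 (higher in 2 of 2 libraries, adjusted p = 0.0361), against the direction of its change in the first 24 h.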

How the results depend on the processing

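The log2-fold change of miR-143-3p kept its call under every setting, from 3.93 on total counts to 4.49 without 0 h replicate 1, and the median of the block from MIR379 to MIR656 ranged from 0.36 on total counts to 0.85 without 0 h replicate 1. Against 17 calls at 24 h (6 higher, 11 lower), total counts gave 33 (28 lower), total counts without miR-21-5p 26 (21 lower), no fold threshold 35 (17 higher, 18 lower), and no filter 13 higher. Limma-trend on the deposited values gave 3 higher and kept 11 of the 17. Of the miRNAs called at 24 h, those called again from 24 to 96 h numbered 3, and 6 on total counts, 5 on total counts without miR-21-5p, 5 without the filter, and 5 without the fold threshold. Leaving out each library gave 4 to 36 calls, 2 to 24 of them higher and 2 to 12 lower, kept 4 to 13 of the 17, and gave 2 to 5 called again; with 1 library left at a time point, it is assumed to vary like the others.

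With the replicate block, 20 miRNAs were called and 5 of those at 24 h were called again from 24 to 96 h. Same-numbered libraries did not deviate together in every pair of time points. The r across 491 miRNAs, which are not independent, was −0.301 for 0 and 24 h, 0.312 for 0 and 96 h, and −0.184 for 24 and 96 h. The labels do not say whether the numbers pair the samples, and these values cannot settle it. The main fit did not use the numbers as pairs. With the numbers crossed at 24 h, 27 were called, 12 of them higher, and 5 were called again.

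Of the 491 tested miRNAs, 244 had values above 0 with TMM and 152 on total counts, so many values near 0 changed sign. Among them were let-7i-5p at −0.0384, miR-27b-3p at −0.16, miR-30a-5p at −0.0484, and miR-127-3p at −0.13. Others were miR-221-5p at −0.26 and miR-183-5p at −0.11. On total counts without miR-21-5p, those that changed sign included miR-27b-3p at −0.0581 and miR-127-3p at −0.0217. With limma-trend they included let-7i-5p at −0.0302, miR-27b-3p at −0.16, miR-30a-5p at −0.0416, and miR-127-3p at −0.10. Over the omitted libraries, miR-200c-3p ranged from −0.64 to 0.088 and miR-7-1-3p from −0.23 to 0.68. None of these was called. Of the called, miR-584-5p lost its call under 11 of 19 settings, miR-33b-3p and miR-3912-3p under 8, and miR-378d, miR-671-5p, and miR-493-5p under 7. miR-3195 lost it under 6, miR-1268a and miR-1268b under 3, and miR-1303, miR-136-3p, and miR-129-5p under 2. For miR-573 it was lost under 4 of 18. The cause was not tested.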

Other observations

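In 109 precursors with both strands tested, the less abundant strand had the higher log2-fold change at 24 h in 44, with a median difference of −0.06 between the strands. It was higher in all 4 miR-181 precursors among them, with 1.41 against 0.37 at MIR181A2, 0.67 against 0.37 at MIR181A1, 1.26 against 0.66 at MIR181B1, and 0.53 against 0.34 at MIR181C, of which only miR-181a-2-3p was called. In the chromosome 14 region it was the case for 8 of 12 precursors, with a median difference of 0.15. The strands of a precursor are not independent, and no test was made.

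The MIRLET7A2 and MIR100 locus lies on chromosome 11 in an intron of MIR100HG. Its 4 tested strands were all above 0, with a median of 0.60 (0.32 on total counts). miR-100-5p was at 0.35 (adjusted p = 0.153, edgeR), and miR-100-3p, on at most 31 counts in these libraries, at 0.86 (adjusted p = 0.186, edgeR). Neither passed the test. The 4 strands of the MIR425 and MIR191 locus were all below 0, with a median of −0.48 (−0.76 on total counts). Without 0 h replicate 1 the median was −0.37, with 1 of 4 above 0. With all libraries, miR-425-5p was at −0.83 (adjusted p = 0.0679, edgeR).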
